A study of Mus musculus with 4 samples.

Results

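The 10 genes described here encode receptors of the tumour necrosis factor (TNF) superfamily: Tnfrsf1a, Tnfrsf1b, Tnfrsf4, Tnfrsf8, Tnfrsf9, Tnfrsf14, Tnfrsf18, Tnfrsf25, Cd27 and Fas. They were taken by name from the 50600 genes counted in each file, and all 10 were found. They were followed through 4 RNA sequencing libraries of mouse T-helper 17 (Th17) cells, the interleukin 17 producing class of CD4 T cell. The cells are primary cells of strain C57BL/6NJ, and the names in the header lines bear the marks 72hr and Sorted. The labels number the libraries as biological replicates 1 to 4 of 1 group, with a biosample each and 1 donor label for all. No untreated, naive or other T-cell group was analysed here, so the comparisons are between genes within a library and between the 4 libraries.

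Receptors of this superfamily sit in the cell membrane and bind trimeric ligands, most of them membrane proteins of other or of the same immune cells. Members with a cytoplasmic death domain, among the 10 Tnfrsf1a, Tnfrsf25 and Fas, recruit the adaptors TRADD or FADD and can pass on a death signal. The other 7 bind TRAF adaptors directly and lead to NF-kappaB and MAP kinase signalling, or, for Tnfrsf14, also act as a ligand for the inhibitory receptor BTLA. In T cells several of them are costimulatory receptors that appear after antigen receptor signalling and prolong survival and cytokine production.

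The libraries held between 9382661 counts (replicate 3) and 34542693 counts (replicate 1) of read pairs. Replicate 3 is the shallowest, so the rarest members rest on 57 to 136 counts there. Levels are given as TPM, counts per base of exon scaled to 1 total per library, and changes of 1 gene between libraries as CPM, counts scaled to the library total with the TMM method. All 6 Th17 markers listed were above 1 TPM in every library, from Rora at 40.2 TPM in the mean to Il17f at 11651 TPM, and so were the 5 T-cell markers. The summed level of the 5 markers lay between 0.241 and 0.670 TPM per library for B cells, between 0.284 and 0.418 TPM for dendritic cells and between 0.958 and 2.67 TPM for macrophages and monocytes. The CD8 markers Cd8a and Cd8b1 summed to 11.3 to 15.5 TPM, nearly all of it Cd8b1. Cd8a held 4 counts over all libraries, while Cd8b1 stood at 13.4 TPM in the mean. The 4 natural killer markers summed to 2.89 to 5.04 TPM, with Ncr1 and Klrb1c at 0 counts. Eomes held 11 counts over all libraries, and Klrd1 supplied most of the sum at 3.60 TPM in the mean. Of the regulatory T-cell markers, Foxp3, Lrrc32 and Itgae were below 1 TPM in the mean, Ikzf2 stood at 4.49 TPM and Ikzf4 at 30.3 TPM. Although the labels give 1 donor, Xist stood at 177 and 193 TPM in replicates 1 and 2 and at 2.15 and 0.598 TPM in replicates 3 and 4. The Y-linked gene Ddx3y ran the other way, with TPM of 0.165, 0.133, 59.7 and 55.2 from the first to the last replicate. The libraries thus differ in sex-linked transcripts, and the spread between them includes that difference. In bulk RNA, fewer cells that express a gene and less RNA of it per cell cannot be told apart.

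The genes lie in few places of the genome. In mm10 coordinates, 7 of the 10 are on chromosome 4, which holds 6.08% of the 21764 protein-coding genes in the files, while Tnfrsf1a and Cd27 are on chromosome 6 and Fas is on chromosome 19. Tnfrsf4 (ENSMUSG00000029075.6, chromosome 4, 156013843 to 156016612) and Tnfrsf18 (ENSMUSG00000041954.18, 156026164 to 156028895) follow each other on the plus strand with 9551 bases and 2 other genes of the files between them. Tnfrsf1b (145213463 to 145246870) and Tnfrsf8 (145267137 to 145315164) share the minus strand with 20266 bases between them. Tnfrsf9 (ENSMUSG00000028965.13) runs on the plus strand from 150914562 to 150946102. Cd27 shares 129 of its 2328 exonic bases with Mir8113 on the same strand, and the effect of this on its counts was not measured. Tnfrsf18 shares 414 bases with Gm16008 on the opposite strand, which the strand-specific counting keeps apart. The other 8 share no exonic base with another gene of the files.

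The start regions of Tnfrsf9, Tnfrsf18, Cd27 and Tnfrsf8 are printed because these genes spread most between the libraries relative to their abundance. RefSeq (GRCm38.p6, the same assembly as mm10) gives windows from 250 bases before to 50 bases after a start for all 10 genes, 12 windows in all, with 2 each for Tnfrsf9 and Tnfrsf25. Both strands were searched for the AP-1 motif TGANTCA and the 10-base NF-kappaB consensus, the recognition sequences of factors that act downstream of the antigen receptor and of this receptor family. Capitals mark the matches in these windows, each read in the direction of the gene.
Tnfrsf9 downstream start, chr4:150927749-150928048, plus strand: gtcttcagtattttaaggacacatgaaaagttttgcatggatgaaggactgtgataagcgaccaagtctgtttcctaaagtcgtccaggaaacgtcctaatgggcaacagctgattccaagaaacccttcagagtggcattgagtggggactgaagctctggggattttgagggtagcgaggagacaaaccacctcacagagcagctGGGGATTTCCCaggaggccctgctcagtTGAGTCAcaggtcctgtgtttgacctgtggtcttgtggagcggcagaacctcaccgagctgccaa
Tnfrsf9 upstream start, chr4:150919905-150920204, plus strand: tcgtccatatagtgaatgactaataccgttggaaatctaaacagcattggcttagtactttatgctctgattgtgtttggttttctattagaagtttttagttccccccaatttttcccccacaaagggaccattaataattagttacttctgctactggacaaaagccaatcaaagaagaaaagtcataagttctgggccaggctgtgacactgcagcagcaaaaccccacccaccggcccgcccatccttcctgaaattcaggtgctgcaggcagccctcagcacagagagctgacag
Tnfrsf8, chr4:145315115-145315414, minus strand: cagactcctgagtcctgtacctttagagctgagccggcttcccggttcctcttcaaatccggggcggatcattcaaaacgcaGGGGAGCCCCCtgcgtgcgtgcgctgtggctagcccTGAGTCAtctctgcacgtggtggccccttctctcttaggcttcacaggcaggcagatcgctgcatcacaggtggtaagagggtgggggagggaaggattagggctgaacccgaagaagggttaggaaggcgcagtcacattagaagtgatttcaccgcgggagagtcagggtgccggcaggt
Tnfrsf18, chr4:156026072-156026371, plus strand: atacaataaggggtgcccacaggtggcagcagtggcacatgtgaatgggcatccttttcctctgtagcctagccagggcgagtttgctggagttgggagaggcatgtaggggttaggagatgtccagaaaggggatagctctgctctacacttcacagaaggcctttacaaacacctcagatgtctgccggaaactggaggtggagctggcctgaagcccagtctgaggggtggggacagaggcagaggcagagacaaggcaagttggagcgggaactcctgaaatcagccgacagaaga
Cd27, chr6:125236978-125237277, minus strand: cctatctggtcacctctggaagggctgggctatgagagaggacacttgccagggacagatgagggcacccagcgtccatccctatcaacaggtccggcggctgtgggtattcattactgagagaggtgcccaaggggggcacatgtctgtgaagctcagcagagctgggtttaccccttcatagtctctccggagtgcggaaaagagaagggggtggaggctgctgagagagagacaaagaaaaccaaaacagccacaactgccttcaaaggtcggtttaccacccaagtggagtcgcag

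The downstream window of Tnfrsf9 holds GGGGATTTCCC, in which 2 matches to the NF-kappaB consensus overlap, the first beginning 43 bases before the start. An AP-1 match, TGAGTCA, begins 15 bases before the same start. The Tnfrsf8 window also holds both, with GGGGAGCCCCC beginning 168 bases and TGAGTCA 132 bases before the start. The upstream window of Tnfrsf9 and the windows of Tnfrsf18, Tnfrsf4, Tnfrsf14, Cd27, Tnfrsf1a and Tnfrsf1b hold neither. The Fas window has an AP-1 match alone, and 1 of the 2 Tnfrsf25 windows has an NF-kappaB match alone. Over the 32851 windows of that length in the RefSeq table, 7.81% hold the AP-1 motif, 8.46% the NF-kappaB consensus and 0.539% both. These matches describe the letters only. The counts are per gene and do not tell which start was used. The Tnfrsf4 window ends at 156013744, before the counted gene begins at 156013843. For Tnfrsf4, Cd27 and Fas, the bases just after the RefSeq start were found in no GENCODE transcript of the gene.

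The first question was how much of each receptor transcript the cells held. No member was under 1 TPM in any library, and the means spanned from 10.2 to 1136 TPM, with a median of 47.6 TPM over the 10 genes. The costimulatory receptors Tnfrsf4 (OX40), Tnfrsf18 (GITR) and Tnfrsf9 (CD137) led. Together they held 85.8% ± 1.49 (SD, n = 4) of the summed TPM of the 10 genes, and Tnfrsf4 alone held 61.7% ± 3.64.

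Tnfrsf4, whose product prolongs the survival of activated CD4 T cells, was measured at 1104, 1137, 1015 and 1290 TPM in replicates 1 to 4, a mean of 1136 ± 115 TPM (SD, n = 4). It ranked 85th among the 10696 protein-coding genes with a mean of at least 1 TPM. Tnfrsf18, a costimulatory receptor also known for its high level on regulatory T cells, had 264, 278, 203 and 405 TPM. Its mean of 287 ± 85.0 TPM put it at rank 573, and the lowest and highest library differed 2.00-fold. In each library Tnfrsf4 exceeded Tnfrsf18, by 4.19, 4.10, 5.01 and 3.19 times in TPM. Tnfrsf9, which is induced on activated T cells, had 134, 159, 94.0 and 301 TPM (172 ± 90.2 TPM, rank 1060). Replicate 4 was the highest library for all 3 genes and replicate 3 the lowest.

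The remaining TRAF-binding members were lower. Tnfrsf1b, the TNF receptor that is largely restricted to immune and endothelial cells, was the steadiest, with 55.9, 52.5, 58.7 and 53.9 TPM (55.3 ± 2.70 TPM, SD, n = 4). Tnfrsf14 (HVEM), which binds LIGHT and BTLA, had 20.5, 21.4, 17.2 and 24.4 TPM. Cd27, a receptor carried by naive as well as activated T cells, had 19.33, 19.04, 11.45 and 23.62 TPM. In replicate 3 its 76 counts gave a 95% Poisson interval of 9.02 to 14.3 TPM, below the intervals of the other 3 libraries, of which the lowest began at 17.0 TPM. Tnfrsf8 (CD30), a marker of activated lymphocytes, was the lowest member at 7.85, 8.22, 13.8 and 10.95 TPM (10.2 ± 2.76 TPM), and replicate 3 was its highest library. Tnfrsf4 was thus 54.6 to 88.6 times as abundant per base as Cd27 in the same library.

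The 3 death domain receptors summed to 156 ± 15.5 TPM (SD, n = 4), or 8.51% ± 0.992 of the 10 genes. Tnfrsf25 (DR3), the receptor of the TNF family cytokine TL1A, supplied most of this, with 106, 98.2, 84.9 and 97.9 TPM. Tnfrsf1a, the widely expressed TNF receptor, had 40.4, 43.9, 31.8 and 43.6 TPM. Fas (CD95), which triggers apoptosis in activated T cells, had 20.75, 21.4, 16.6 and 19.9 TPM (19.7 ± 2.15 TPM). All 3 were lowest in replicate 3, where the Poisson interval of Fas, 13.2 to 20.5 TPM, overlapped those of the other libraries. The intervals of Tnfrsf1a (27.9 to 36.2 TPM) and Tnfrsf25 (78.0 to 92.3 TPM) there did not. In the other libraries the lowest began at 38.0 TPM for Tnfrsf1a and 93.5 TPM for Tnfrsf25.

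**Figure D1:**
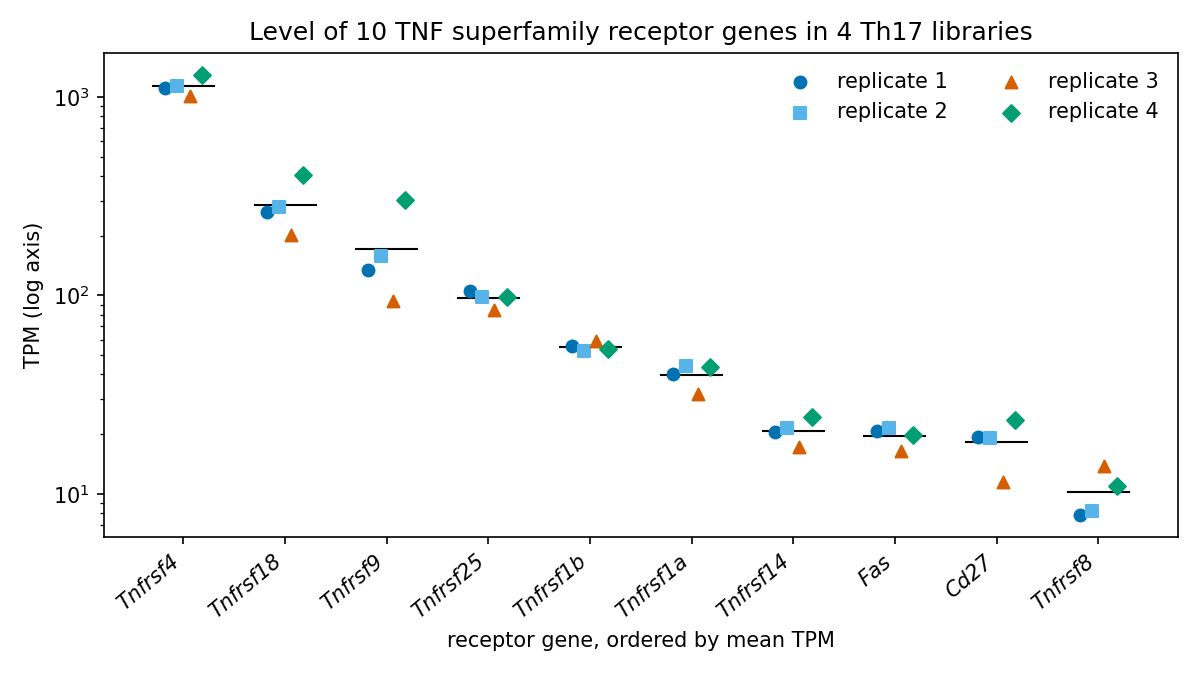
TPM (log axis) of the 10 receptor genes in each of 4 Th17 libraries, with 1 point per library and a bar at the mean. Tnfrsf4 lies at 1015 TPM or more, the points of Tnfrsf14, Fas and Cd27 overlap, and replicate 3 is the lowest point for 8 genes.

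Of the 9 pairs of neighbours in that order, the first 6 kept 1 direction in 4 of 4 libraries, from Tnfrsf4 down to Tnfrsf14. The closest of these was Tnfrsf1b over Tnfrsf1a, by 0.47 ± 0.278 on the log2(TPM + 1) scale (SD, n = 4), or 1.20 to 1.85 times in TPM. Tnfrsf9 exceeded Tnfrsf25 by 0.70 ± 0.651, from 1.11 times in replicate 3 to 3.08 times in replicate 4. Tnfrsf14 and Fas differed by 0.08 ± 0.137 and Fas and Cd27 by 0.13 ± 0.300, less than the spread between libraries. Cd27 was above Tnfrsf8 in 3 libraries and below it in replicate 3. A two-sided exact permutation test that flips signs within libraries gave p = 0.125 for the first 6 pairs, 0.188 after Benjamini-Hochberg adjustment over the 9 pairs. No smaller p is possible with 4 libraries, and the direction of each pair follows from ordering the same values. The order depends on the exonic lengths: on CPM with no length, Tnfrsf18 minus Tnfrsf9 was -0.0074 and Tnfrsf25 minus Tnfrsf1b 0.06 on the log2 scale, and neither pair kept 1 direction in every library.

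The second question was how each receptor stood beside its ligand in the same cells. Of 10 receptor and ligand pairs, 6 had more receptor than ligand transcript in 4 of 4 libraries and 4 had less. Those with less were both TNF receptors against Tnf, Tnfrsf8 against Tnfsf8 and Tnfrsf14 against Tnfsf14. The exact sign-flip test gave p = 0.125 for every pair, unchanged by adjustment over the 10 pairs, and could not go lower with 4 libraries.

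Tnf was measured at 381, 359, 386 and 333 TPM, so that Tnfrsf1b reached 0.146 to 0.162 times and Tnfrsf1a 0.0825 to 0.131 times its level. On the log2(TPM + 1) scale the differences from Tnf were -2.70 ± 0.0671 for Tnfrsf1b and -3.17 ± 0.289 for Tnfrsf1a (SD, n = 4). Lta, which encodes lymphotoxin alpha, another ligand of both receptors, stood higher still at 1977, 1949, 2631 and 1898 TPM. Ltb, which joins lymphotoxin alpha on the membrane, had 138 ± 19.8 TPM, while their receptor gene Ltbr had 0.762 TPM in the mean.

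Among the costimulatory pairs, Tnfrsf4 exceeded its ligand gene Tnfsf4 (13.5 ± 2.18 TPM) by 66.2, 90.8, 85.9 and 100.6 times in replicates 1 to 4. Tnfsf18, the ligand gene of Tnfrsf18, held 7 counts over all libraries against 13566 for its receptor. Per base of exon this was a 2627-fold difference, with a 95% exact interval of 1275 to 6536 from counting error alone. Tnfsf15, which encodes the TL1A ligand of Tnfrsf25, held no count in any library. A count of 0 allows up to 3, and against 3 counts over the 4 libraries Tnfrsf25 was at least 3257-fold higher per base. These 2 ligands are chiefly made by antigen-presenting and endothelial cells.

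The other pairs were closer. Tnfsf9 was nearly level across the libraries, at 51.5, 52.6, 52.5 and 51.5 TPM, so that Tnfrsf9 was 1.79 times its ligand in replicate 3 and 5.85 times in replicate 4. Cd70 had 9.28, 4.92, 6.25 and 4.20 TPM, and Cd27 exceeded it 1.83 to 5.62 times. Fasl, the death ligand gene of activated T cells, had 3.05, 1.71, 1.81 and 4.36 TPM, and Fas exceeded it 4.56 to 12.5 times. Tnfsf14, the gene of LIGHT, stood at 59.2 ± 4.90 TPM above Tnfrsf14, which had 0.314 to 0.404 times as much. Tnfsf8 had 28.6, 30.9, 20.4 and 44.4 TPM, and Tnfrsf8 reached 0.247 to 0.275 times that in replicates 1, 2 and 4 and 0.677 times in replicate 3. In this pair the ligand was lowest and the receptor highest in the same library.

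**Figure D2:**
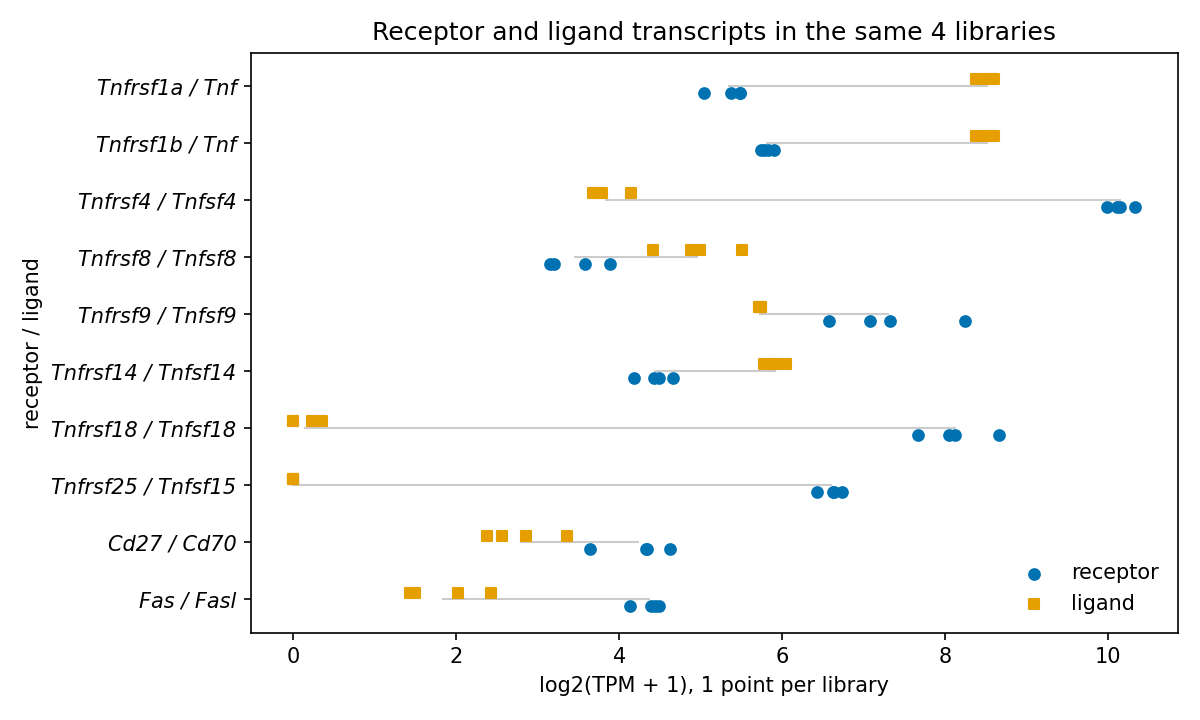
Levels of receptor (circles) and ligand (squares) transcripts on the log2(TPM + 1) scale for 10 pairs, with 1 point per library and a line between the means. In each pair the 4 receptor points and the 4 ligand points do not overlap, with the receptor higher in 6 pairs.

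The last question was which members differed between the 4 libraries beyond genes of like abundance. edgeR was fitted to all genes with an intercept alone, and the quasi-dispersion of each gene was set against the trend for genes of its abundance with an upper-tail F test. None of the 10 members passed an adjusted p of 0.05, where 0.00823% of the 12156 genes tested did. At an unadjusted p under 0.05 there were 4 members, Tnfrsf9, Tnfrsf18, Cd27 and Tnfrsf8, where 4.90% of all genes tested passed. All 10 members passed the filter on low counts. The median ratio of dispersion to trend was 3.00 over the members and 0.917 over all genes tested, and the median coefficient of variation was 13.4% beside 7.91%. Without replicate 3 these coefficients were 8.43% and 6.58%. Without the filter on low counts, with 21299 genes tested, they were 13.56% and 21.52%. The members were then below all genes, because the value of all genes rose with the low-count genes added while that of the members hardly moved.

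Tnfrsf9 spread most, with 111, 132, 79.0 and 248 CPM in replicates 1 to 4, a 3.14-fold range. Its dispersion was 90.7 times the trend (edgeR, adjusted p = 0.2891). The call turned on the setting: the adjusted p was 1.071e-05 without a filter on low counts and 0.03488 without replicate 4, and DESeq2 marked the gene as a dispersion outlier. These settings also called more genes in all, 0.592% of those tested without the filter, 0.165% without replicate 4 and 0.847% with DESeq2. Replicate 4 was the high library and replicate 3 the low one, and both lie on the same side of the split in Xist and Ddx3y. The part of that split in the spread of Tnfrsf9 was not tested. A range of at least 2-fold was reached by 2 members, Tnfrsf9 and Cd27, and by 6.86% of all genes tested.

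Tnfrsf18 followed with 122, 129, 95.3 and 187 CPM and a dispersion 29.2 times the trend (edgeR, adjusted p = 0.4452). Without the filter its adjusted p was 0.002038, and DESeq2 marked it as an outlier too. Cd27 had 13.7, 13.6, 8.23 and 16.7 CPM, a 2.02-fold range. Counting error alone gives a coefficient of variation of 6.15% at its depth, beside the observed 26.9%. Replicate 3 was the low library. Tnfrsf8 had 8.25, 8.69, 14.7 and 11.5 CPM, with a coefficient of 27.7% beside 7.30% from counting. It ran the other way from Cd27, highest in replicate 3.

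The other 6 members had dispersions between 0.810 and 3.25 times the trend. Tnfrsf1b and Fas were the least spread for their abundance, at 0.836 and 0.810 times. Tnfrsf4, with 458, 474, 428 and 533 CPM, varied 1.25-fold in all, or 9.40% as a coefficient of variation. The highest member was thus steadier in relative terms than Tnfrsf18.

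**Figure D3:**
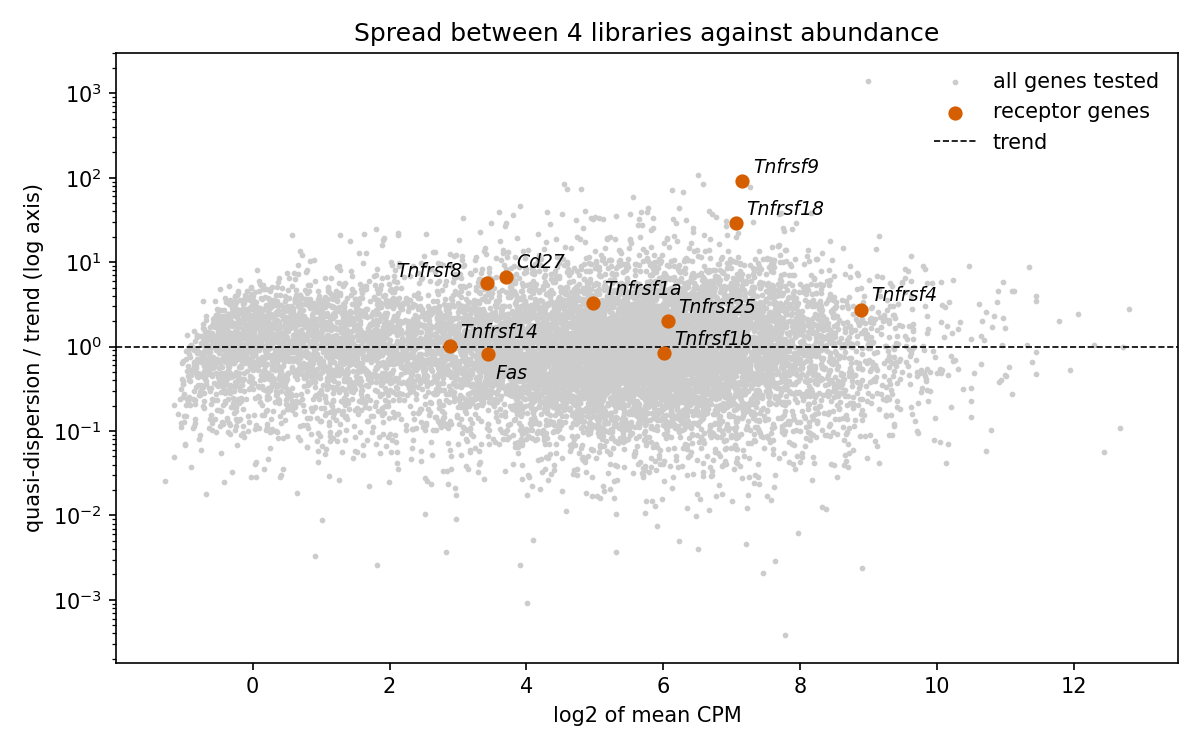
Quasi-dispersion divided by its trend (log axis) against the log2 of mean CPM for all 12156 genes tested, with the 10 receptor genes marked. Tnfrsf9 and Tnfrsf18 stand 90.7 and 29.2 times above the trend line, while Fas, Tnfrsf1b and Tnfrsf14 lie close to it.

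Most members were lowest in the same library. Replicate 3 was the lowest of the 4 for 8 of 10 members, all except Tnfrsf1b and Tnfrsf8, where 34.2% of all genes tested had their lowest CPM in it. Replicate 4 was the highest for 5 members, Tnfrsf4, Tnfrsf9, Tnfrsf14, Tnfrsf18 and Cd27, where 33.2% of all genes tested were highest there. The same 5 were both highest in replicate 4 and lowest in replicate 3, beside 20.5% of all genes. The full order of replicates 4, 2, 1 and 3 was taken by Tnfrsf4, Tnfrsf9, Tnfrsf14 and Tnfrsf18, beside 12.1% of all genes. These courses are those of the members themselves, so the shares beside them are a description and not a test. Nor was this course confined to the receptors. Of the 5 T-cell markers, Cd3e, Cd3g, Trac and Cd4 also had their lowest TPM in replicate 3 and their peak in replicate 4. The range was smaller than for Tnfrsf9, from 1.11-fold for Cd4 to 1.39-fold for Cd3g. Cd5 differed, with its lowest TPM in replicate 4. Among the ligands, Ltb and Tnfsf8 took the course of the receptors, and Tnf and Lta the reverse. A shared cause was not tested. In log2(CPM + 1) around the mean of each gene, the median member stood at -0.21 in replicate 3 and 0.15 in replicate 4, while the median gene tested was at 0.00 in both. For Tnfrsf9 the values were -0.71 and 0.93, Tnfrsf18 at -0.44 and 0.53, Cd27 at -0.56 and 0.37 and Tnfrsf4 at -0.14 and 0.18. Tnfrsf8 had the opposite sign in replicate 3, at 0.45. The 5 regulatory T-cell markers did not share 1 course: Foxp3 (7 to 21 counts per library), Ikzf2 and Ikzf4 were highest in replicate 3, while Lrrc32 and Itgae were lowest there and highest in replicate 4. Foxp3 had 0.382, 0.277, 1.85 and 0.200 TPM, Lrrc32 0.407, 0.854, 0.374 and 1.34 TPM, and the summed level of the list was 32.5 to 41.6 TPM. The part of such cells in the pattern was not tested. Replicate 3 was also the shallowest library, and the part of depth in this pattern was not tested.

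**Figure D4:**
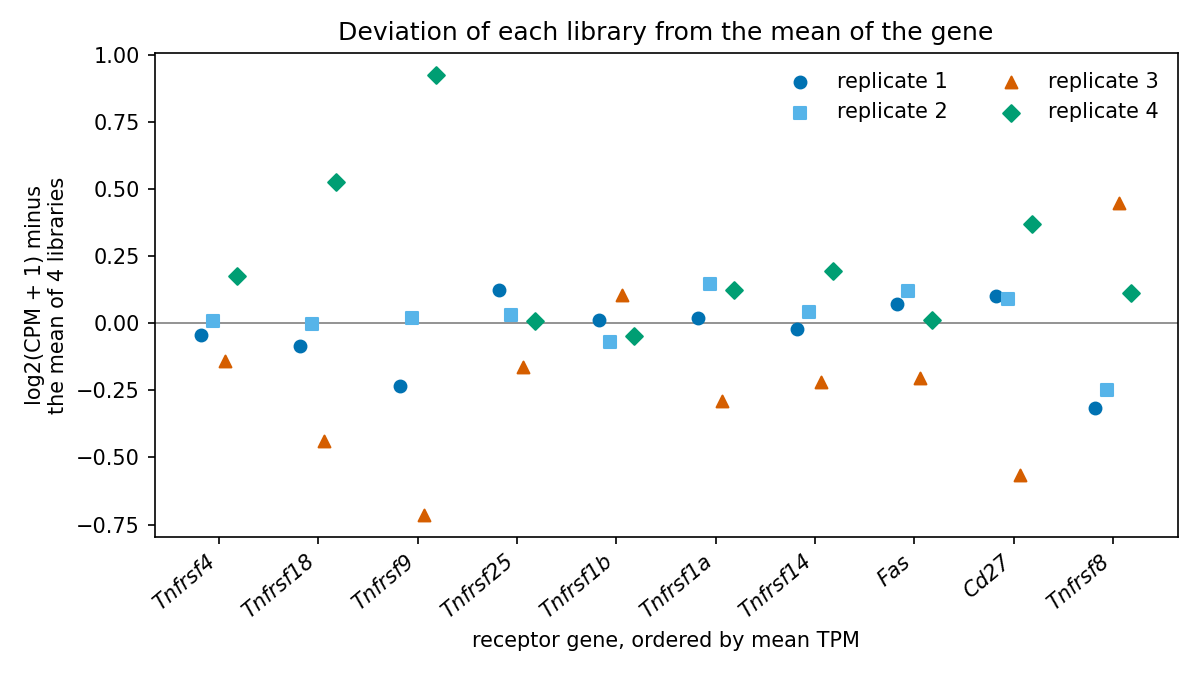
Deviation of each library from the mean of the gene in log2(CPM + 1) units for the 10 receptor genes, with 1 point per library. Replicate 4 stands at 0.93 for Tnfrsf9 and 0.53 for Tnfrsf18, replicate 3 at -0.71 and -0.44. The points of Tnfrsf1b stay between -0.07 and 0.10.

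Among 8732 other genes with a mean of at least 10 CPM, those nearest to Tnfrsf9 by Euclidean distance of these 4 centred values were Bnip3 (0.162), Kbtbd11 (0.169), Ppp1r3b (0.193), Mgarp (0.203) and Lsp1 (0.237), where the median gene lay at 1.21. Bnip3 ran from 42.25 CPM in replicate 3 to 131 CPM in replicate 4. Of the other members, Tnfrsf18 was the nearest at 0.509, followed by Cd27 at 0.670, and Tnfrsf8 the farthest at 1.45. With 4 libraries such a distance is a description of the values.

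The genes downstream of the receptors had lower ratios of dispersion to trend. Each of the 23 listed adaptors and effectors stayed above 1 TPM throughout, with a median of 40.1 TPM. The highest were Nfkbia, the inhibitor of NF-kappaB, at 523 ± 24.2 TPM (SD, n = 4), the apoptosis initiator Casp8 at 176 ± 17.4 TPM, the linear ubiquitin ligase subunit Rbck1 at 117 ± 4.98 TPM, the kinase Map3k7 at 99.1 ± 9.89 TPM and its partner Tab2 at 98.0 ± 4.76 TPM. None of the 23 passed the spread test after adjustment. At an unadjusted p under 0.05 there was 1, Traf1 (edgeR, adjusted p = 0.9877), where 4.90% of all genes tested passed. Traf1, an adaptor of Tnfrsf9 and Tnfrsf1b, had 40.4, 39.9, 33.1 and 46.9 TPM, lowest in replicate 3 and highest in replicate 4. Traf5, Casp8, Tab2, Ikbkb, Rnf31 and Sharpin took the same course in TPM, and 20.5% of all genes tested did in CPM. The median ratio of dispersion to trend was 0.822 over the 23 genes, beside 3.03 over the 9 ligands tested and 1.26 over the 11 tested of 18 other receptors of the superfamily. Among the ligands, Tnfsf8 and Lta had an unadjusted p under 0.05 and none passed after adjustment (edgeR, adjusted p of 0.5971 and 0.875).

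**Figure D5:**
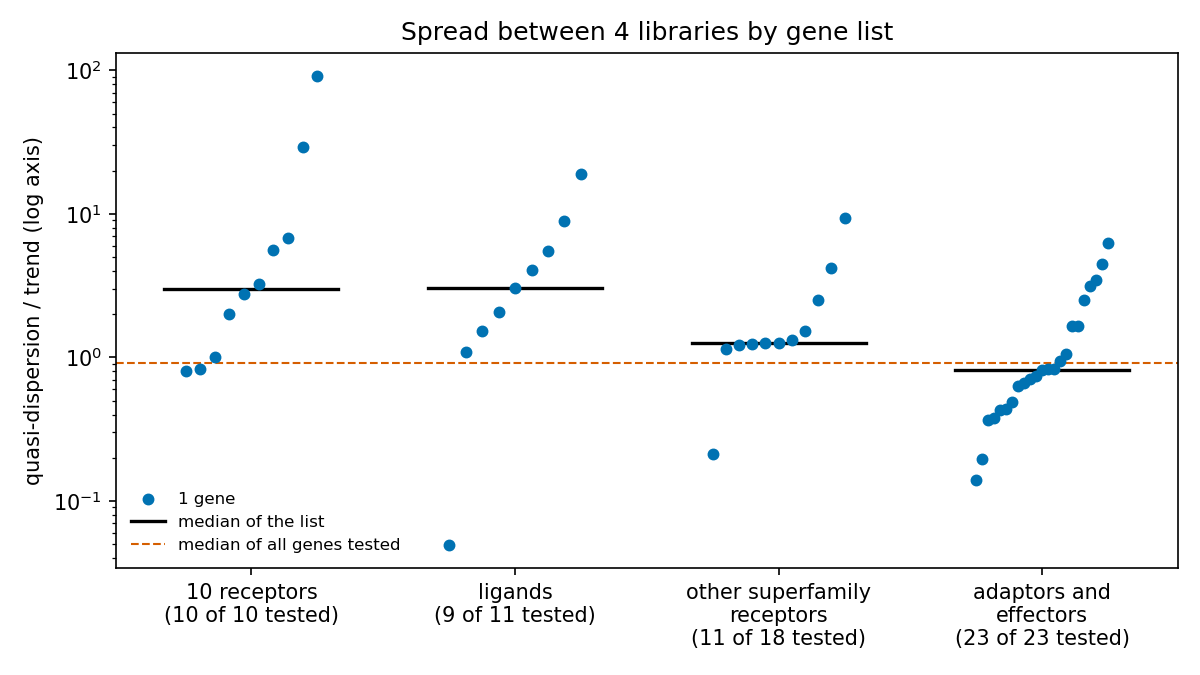
Quasi-dispersion divided by its trend (log axis) for each tested gene of 4 lists, with a bar at the median of the list and a dashed line at the median of all genes tested. The bars stand at 3.00 for the 10 receptors, 3.03 for the ligands, 1.26 for the other receptors and 0.822 for the adaptors and effectors.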

How the data were processed

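The authors' deposited files held raw counts of read pairs per gene, 1 file per library. Per the file headers, the counter was featureCounts 1.4.6-p4, run over the exons in GENCODE mouse release 13, with both mates required to align and reverse-stranded counting. The build is mm10 per the labels, and for the aligner a version was not given in the sources used here. Symbols came from GENCODE mouse release 21, which named 50376 of 50600 identifiers. TPM were computed from these counts with the deposited exonic length of each gene. Gene levels per length depend on these lengths, since unused exons lower the TPM. edgeR 4.0.16 (TMM, filterByExpr, intercept alone) tested the spread between libraries over all genes with Benjamini-Hochberg adjustment, and DESeq2 1.42.0 was an alternative. The edgeR test was first run on simulated counts drawn at the trended dispersion, without the variation of genes around it. That run does not give the power of the test in these data. Pairs of genes were compared with the exact sign-flip permutation test on log2(TPM + 1). Intervals are exact at 95% and cover counting error only. The labels do not tie the libraries to different animals or cultures. All p-values therefore measure only the spread between these samples, which may be technical in part. The opposite levels of Xist and Ddx3y show cells of both sexes among the libraries. The part of that difference in the spread of the members was not tested. Every pair of libraries differed beyond sampling noise (mean chi-square per gene of at least 3.33 over genes with 20 counts or more). The members, lists and motifs were chosen with earlier results of these data known. The text names all members and ligands, and of the other lists the 5 highest genes, those at 0 counts and those that bear on a result.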

Additional observations from a re-analysis of the deposited data

Results flagged for a closer look

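Of 30 genes looked at, 2 had a library far from the other 3, where chance flags about 1 in 20. The 30 do not cover every gene of the lists, and the rest were not looked at in this way. Lta was high in replicate 3 at 2631 TPM beside 1898 to 1977 TPM, a gap of 0.892 of its range. Rbck1 was low in the same library at 109.5 TPM beside 119 to 120.0 TPM, a gap of 0.912 of its range. No member stood out by this measure.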

How the results depend on the processing

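The count of members past the spread test was 0 with TMM, with DESeq2 size factors and with a mean count of at least 50. It was 2 (Tnfrsf9 and Tnfrsf18) without a filter, where 0.592% of all genes were called, and 2 (the same genes) as DESeq2 dispersion outliers, as were 0.847% of all genes. Leaving out 1 replicate gave 0 to 1 (Tnfrsf9, without replicate 4, where 0.165% of all genes were called), and the cause was not tested. The median coefficient of variation of the members ran from 8.43% (without replicate 3, beside 6.58% for all genes) to 16.35% (without replicate 1). Without the filter on low counts it was 13.56% beside 21.52% for all genes, of which 21299 were then tested. The direction of this comparison thus depends on whether low-count genes are among all genes. On CPM with no length 3 neighbouring pairs turned: Tnfrsf18 minus Tnfrsf9 was -0.0074, Tnfrsf14 minus Fas -0.49 and Fas minus Cd27 -0.22. Tnfrsf25 minus Tnfrsf1b was 0.06 and no longer of 1 direction in every library. All 10 receptor and ligand pairs kept their direction with a pseudocount of 0.1, with no length and without each replicate. The median level of the members was 47.2 to 48.4 TPM without 1 replicate. In replicate 3 the fewest counts were those of Tnfrsf14, Cd27 and Fas, at 57 to 85. No paired analysis was possible because there is 1 group.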

Other observations

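The highest of the 18 other receptors of the superfamily was Tnfrsf13b, which encodes TACI, a receptor best known from B cells. It had 157, 149, 198 and 140 TPM in replicates 1 to 4 (161 ± 25.3 TPM, SD, n = 4), above 7 of the 10 receptors described, and above Tnfrsf9 in replicates 1 and 3. Its relatives among receptors of the same ligands stood far lower, Tnfrsf13c at 1.82 TPM and Tnfrsf17 at 2 counts over all libraries. The B-cell genes Ms4a1 and Cr2 held 0 and 1 counts. Tnfrsf13b was highest in replicate 3 and lowest in replicate 4, the reverse of Tnfrsf9 (edgeR, adjusted p = 0.875).

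The death receptor gene Tnfrsf10b stood at 55.3 ± 3.50 TPM, level with Tnfrsf1b. Tnfrsf26, Tnfrsf12a and Relt had 22.8, 22.2 and 21.5 TPM, and the level of Tnfrsf26 is uncertain, since it has similar copies in Tnfrsf22 and Tnfrsf23 and the reads they share were not measured. Ngfr and Edar held no count.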
